A study of Homo sapiens with 5 samples.

Results

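The genes described here are those of HLA class I antigen presentation: the heavy chains HLA-B, HLA-C, HLA-E and HLA-F, their light chain B2M, the peptide transporter subunits TAP1 and TAP2, and the immunoproteasome subunits PSMB8 and PSMB9. They were taken as every probe set that the array annotation assigns to 1 of these symbols and to no other, which gave 23 of 54613 probe sets and 9 of 19775 named genes. A probe set is a group of short oligonucleotides that together read 1 transcript. Of the 23, 11 have an identifier ending in _x_at, which marks probes that can also bind other transcripts, and all 11 belong to HLA heavy chains, so that they can read several HLA genes at the same time.

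The arrays came from MIAPaCa2, a poorly differentiated line established from pancreatic ductal adenocarcinoma (PDAC) and lacking α2 integrin, and were made to ask what α2 expression and growth on collagenI do to transcription in such cells. There were 5 stably transfected populations with 1 array each. MP2-α2/CI cells expressed α2 on plates with a collagenI coat of 25 μg/mL. MP2-α2/TC cells had the same construct and the same panning behind them but grew on uncoated culture plastic. MP2-α2Δ cells expressed an α2 that lacks the cytoplasmic domain, again on collagenI at 25 μg/mL. MP2-α9α2 cells expressed a chimera of the α9 ectodomain with the α2 cytoplasmic domain on a tenascin FNIII fragment at 10 μg/mL. MP2-mock cells were transfected without an integrin and stayed under drug selection. All populations were under selection, the α2 constructs were driven by a cytomegalovirus promoter, and cells were harvested at about 70% confluence. The α9α2 plasmid had another resistance gene than the α2 plasmids, so that construct, substrate and drug changed together in MP2-α9α2 cells. With 1 array per population no difference below has an error or a p-value, and each compares 2 arrays, not 2 conditions.

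Class I molecules are assembled in the endoplasmic reticulum from a heavy chain, B2M and a peptide. The proteasome makes these peptides, TAP1 and TAP2 together carry them across the membrane, and the loaded complex goes to the cell surface, where CD8+ T cells and natural killer cells read it. Interferon γ raises most of these genes together and places PSMB8 and PSMB9 in the proteasome instead of its constitutive subunits, and carcinomas are known for losing parts of the pathway.

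The sequences upstream of these genes are shown because most members are known to be driven by a shared set of promoter elements. RefSeq promoters (assembly GRCh38.p14) were matched for 8 of the 9 genes, all but HLA-E. Each line gives the 140 bases from 180 to 41 bases before the annotated start, 5′ to 3′ on the strand of the gene. The 3 heavy chains and B2M come first, with capitals on matches, in either strand, to AANNGAAA (the core of an interferon response element), GGGGATTC and GGGACTTTC (κB-like), TGACG (as in a cyclic AMP response element) and CCAATCAG (a CCAAT box).
HLA-B (chr6:31357220-31357359, minus strand): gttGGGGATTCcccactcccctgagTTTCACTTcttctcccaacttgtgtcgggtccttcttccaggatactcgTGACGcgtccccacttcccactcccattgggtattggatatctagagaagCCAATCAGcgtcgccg
HLA-C (chr6:31272133-31272272, minus strand): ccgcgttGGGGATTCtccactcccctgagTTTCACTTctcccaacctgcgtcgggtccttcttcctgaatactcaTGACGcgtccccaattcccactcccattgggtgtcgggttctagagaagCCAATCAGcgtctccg
HLA-F (chr6:29723254-29723393, plus strand): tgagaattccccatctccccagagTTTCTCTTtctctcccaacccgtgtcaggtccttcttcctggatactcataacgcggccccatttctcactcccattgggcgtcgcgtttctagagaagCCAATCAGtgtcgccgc
B2M (chr15:44711337-44711476, plus strand): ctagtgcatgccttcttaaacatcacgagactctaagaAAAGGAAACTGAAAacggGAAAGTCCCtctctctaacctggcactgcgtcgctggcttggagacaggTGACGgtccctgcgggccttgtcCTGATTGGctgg

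The 3 heavy chains shared their order of elements, as the map of motif matches shows. In HLA-B and HLA-C the κB-like match lay farthest upstream, followed by the interferon-type match, TGACG and the CCAAT box. HLA-F had the interferon-type match and the CCAAT box alone. B2M, which lies on another chromosome, held its interferon-type match upstream of a κB-like match of the other kind, and its CCAAT box ran on the opposite strand. Over the 250 bases before 35097 annotated starts, AANNGAAA occurred in 20.3% of windows, TGACG in 21.2%, CCAATCAG in 3.81%, GGGGATTC in 0.772% and GGGACTTTC in 0.325%. Among the 10 windows of the 8 matched genes AANNGAAA and TGACG were found in 6 each, CCAATCAG in 4, and GGGGATTC and GGGACTTTC in 2 each. These are matches of letters, not sites shown to be bound. The motifs were chosen as elements known from such promoters, so their counts here are not independent evidence.

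TAP2, PSMB8, TAP1 and PSMB9 follow each other in this order in the class II region of the same chromosome arm. The stretches of 3 of them are given to set beside those of the heavy chains.
TAP1 (chr6:32853745-32853884, minus strand, the upstream 1 of 2 annotated starts): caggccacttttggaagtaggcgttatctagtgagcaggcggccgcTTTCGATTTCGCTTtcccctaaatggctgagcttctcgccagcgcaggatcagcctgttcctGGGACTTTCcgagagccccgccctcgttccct
TAP2 (chr6:32838780-32838919, minus strand): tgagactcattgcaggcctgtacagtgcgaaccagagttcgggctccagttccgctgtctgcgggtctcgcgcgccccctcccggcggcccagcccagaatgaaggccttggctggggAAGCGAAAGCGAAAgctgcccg
PSMB9 (chr6:32854012-32854151, plus strand): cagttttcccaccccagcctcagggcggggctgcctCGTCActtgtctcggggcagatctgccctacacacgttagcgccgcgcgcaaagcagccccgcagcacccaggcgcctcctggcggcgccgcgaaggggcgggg

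TAP1 and TAP2 each had 2 overlapping interferon-type matches, as did B2M, and TAP1 shared with B2M the κB-like GGGACTTTC. TAP2 also had TGACG, closer to the start than the stretch reaches. PSMB9 and PSMB8 had only TGACG, and the second annotated starts of TAP1 and PSMB8 had none of the 5 motifs.

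**Figure D1:**
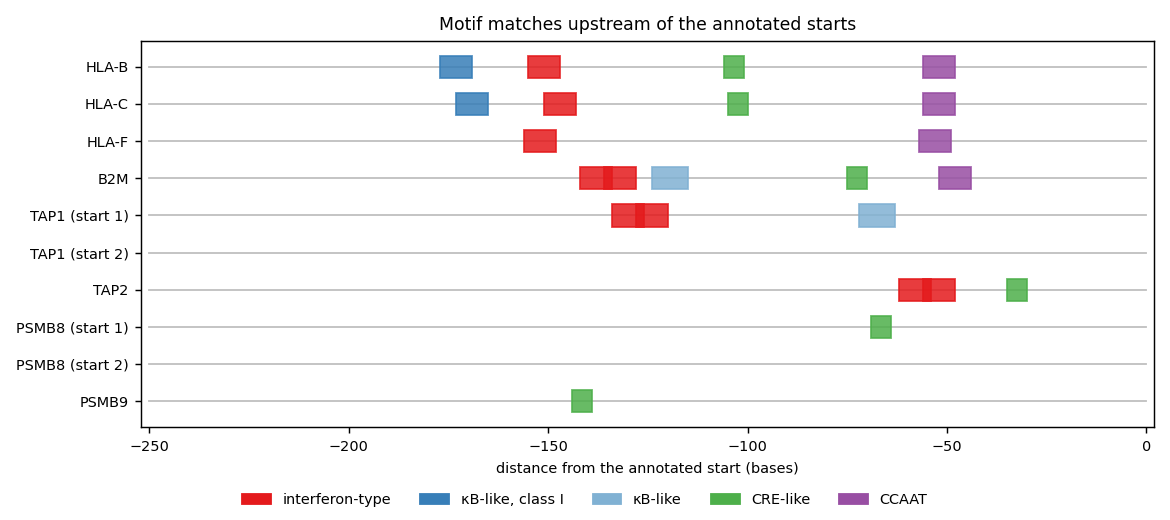
Motif matches in the 250 bases before the annotated starts of 8 member genes, with 2 starts for TAP1 and PSMB8; the horizontal axis is the distance from the start in bases and the colors are the 5 motifs. HLA-B and HLA-C hold the same 4 motifs in the same order, and PSMB9 holds TGACG alone.

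The deposited values are read here as log2 intensities, from 2.24 to 15.84 on 3 of the arrays. Each array has a floor, set so that 95% of 107 odorant receptor probe sets lie at or under it, and values below it were raised to it. The floors lay between 2.21 and 2.27. MP2-α2/CI, MP2-α2/TC and MP2-mock shared a minimum of 2.24, and MP2-α2Δ and MP2-α9α2 shared one of 2.21, which was taken as a sign of 2 separate normalizations. Over the 27320 probe sets that passed the floor on every array, the median of the differences from MP2-mock was 0.53 for MP2-α2Δ and 0.54 for MP2-α9α2. This median is called the shift, and differences across the sets are given relative to it. The medians of the arrays themselves lay farther apart, by 0.84 for MP2-α2Δ and 0.81 for MP2-α9α2, and centering each array on its median removes these amounts. Of the 23 member probe sets, 20 were above the floor on all 5 arrays. HLA-F 221978_at and TAP2 208428_at were at or below it on all 5, and B2M 232311_at was within 0.02 of it on all arrays, so these 3 carry no information.  Of 5 leukocyte genes, 3 were at or below the floor on all arrays (PTPRC, CD3E and MS4A1) and none exceeded 4, with summed levels of 11.74 to 12.42. Among 8 class II genes only HLA-DMB exceeded 4, and the keratins KRT8, KRT18 and KRT19 lay between 11.74 and 15.22. EPCAM was at or below the floor on all arrays and CDH1 was within 0.02 of it, so that the epithelial label rests on the keratins. Per the study, the α2 construct lacks the sequence that the α2 probes bind, so these check no transgene, and its arrays detected α2 in none of the cells. The deposited values differ from this, as ITGA2 227314_at was 7.28 in MP2-α2Δ against 2.21 in MP2-α9α2 and 2.24 in MP2-mock. ITGA2 205032_at was 3.28 in MP2-α2Δ, 2.21 in MP2-α9α2 and 2.24 in MP2-mock. The reason was not tested.

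**Figure D2:**
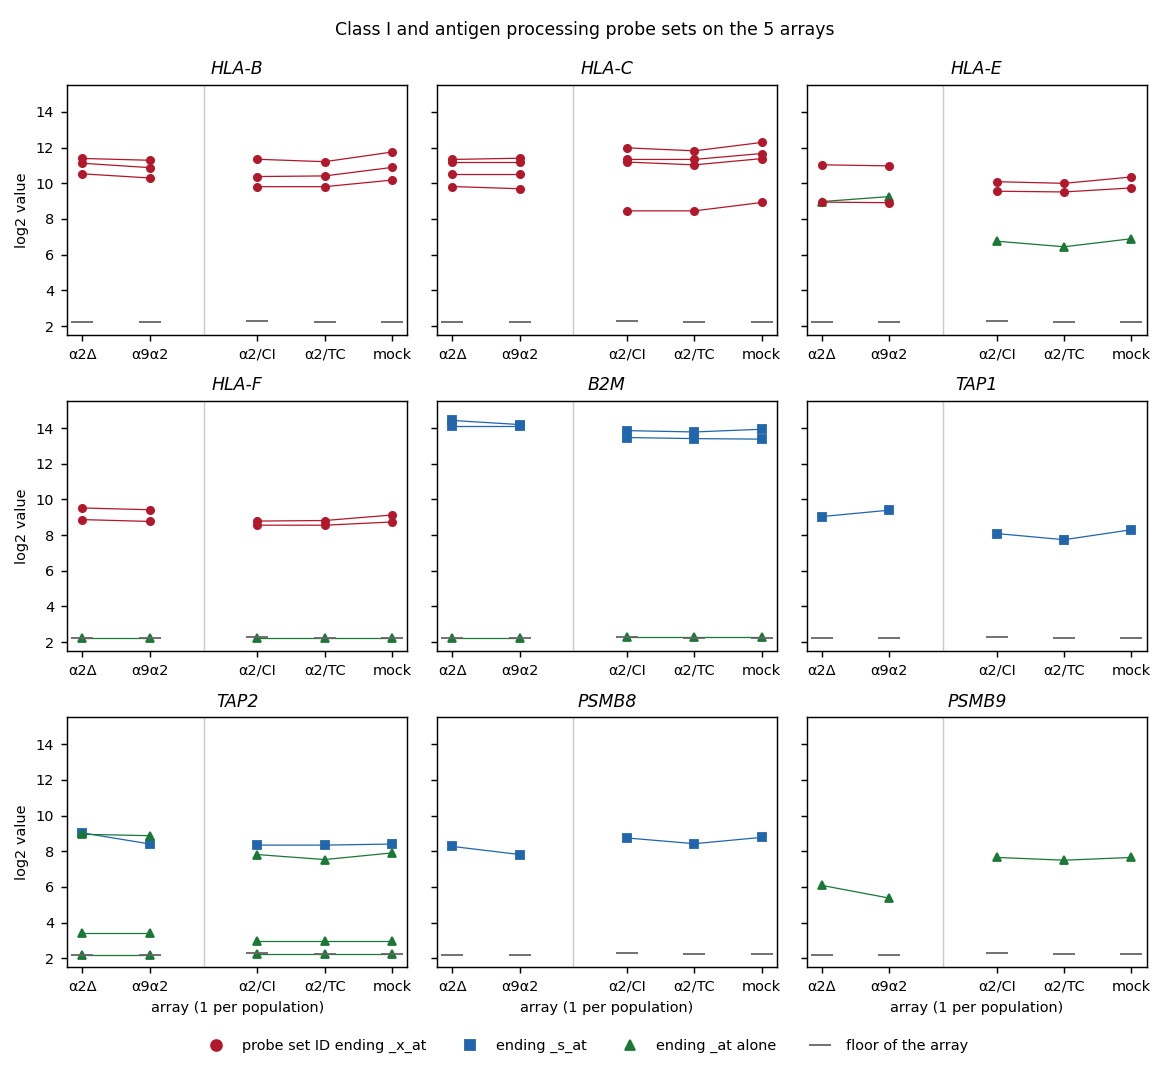
Log2 values of the 23 member probe sets, 1 panel per gene and 1 point for each array, short lines for the floors and a vertical line between the 2 normalization sets. The heavy chain probe sets are highest in MP2-mock among the 3 arrays on the right, and PSMB9 lies at 6.08 and 5.37 in the 2 arrays on the left.

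On the arrays of both α2 populations, all 12 measurable heavy chain probe sets read lower than in MP2-mock cells. The difference was -0.51 to -0.14 in MP2-α2/CI, with a median of -0.32, and -0.54 to -0.18 in MP2-α2/TC, with a median of -0.36. These are small differences, none of them 2-fold. TAP1 and part of TAP2 were also lower, whereas B2M differed from MP2-mock by -0.15 to 0.09. Because these are bulk samples, fewer cells that express a gene and less RNA per cell cannot be told apart. Both differences share the MP2-mock array, and 11 of the 12 probe sets are of the kind that can read several HLA genes, so they are not 12 separate measurements.

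HLA-B encodes a classical heavy chain, which presents peptides to CD8+ T cells. HLA-B 209140_x_at read 11.35 in MP2-α2/CI and 11.21 in MP2-α2/TC, against 11.75 in MP2-mock. HLA-B 211911_x_at read 10.38 in MP2-α2/CI and 10.41 in MP2-α2/TC, against 10.89 in MP2-mock. HLA-B 208729_x_at read 9.81 in both MP2-α2/CI and MP2-α2/TC, against 10.18 in MP2-mock. All 3 probe sets were therefore 1.29- to 1.42-fold lower in MP2-α2/CI and 1.29- to 1.45-fold lower in MP2-α2/TC, and MP2-mock was the highest of the 3 arrays each time. The differences from MP2-mock were -0.37, -0.40 and -0.51 for MP2-α2/CI and -0.37, -0.54 and -0.48 for MP2-α2/TC, in the order of the identifiers.

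HLA-C, the other classical heavy chain on this list, is also the main class I ligand of inhibitory receptors of natural killer cells. HLA-C 208812_x_at read 11.99 in MP2-α2/CI and 11.82 in MP2-α2/TC, against 12.29 in MP2-mock. HLA-C 216526_x_at read 11.19 in MP2-α2/CI and 11.03 in MP2-α2/TC, against 11.38 in MP2-mock. For these probe sets MP2-α2/CI lay between MP2-α2/TC and MP2-mock, with differences from MP2-mock of -0.30 and -0.19 in MP2-α2/CI and of -0.47 and -0.35 in MP2-α2/TC. HLA-C 214459_x_at read 11.34 on both α2 arrays against 11.67 in MP2-mock, and HLA-C 211799_x_at read 8.46 on both against 8.92 in MP2-mock. The α2 arrays held identical values for these probe sets, with differences of -0.33 and -0.47 from MP2-mock.

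HLA-E and HLA-F are nonclassical heavy chains with little variation between people, and HLA-E displays leader peptides of other class I chains to natural killer cells. HLA-E 200904_at is the only heavy chain probe set above the floor whose identifier does not end in _x_at. It read 6.75 in MP2-α2/CI and 6.44 in MP2-α2/TC, against 6.89 in MP2-mock, a difference of -0.14 for MP2-α2/CI and of -0.45 for MP2-α2/TC. The other probe sets of HLA-E were lower too. HLA-E 200905_x_at read 10.09 in MP2-α2/CI and 10.00 in MP2-α2/TC, against 10.36 in MP2-mock, and HLA-E 217456_x_at read 9.56 in MP2-α2/CI and 9.52 in MP2-α2/TC, against 9.74 in MP2-mock. HLA-F 221875_x_at read 8.79 in MP2-α2/CI and 8.82 in MP2-α2/TC, against 9.13 in MP2-mock, and HLA-F 204806_x_at read 8.56 on both α2 arrays against 8.74 in MP2-mock. HLA-F 204806_x_at had the smallest of the heavy chain differences in MP2-α2/TC, -0.18, and HLA-E 200904_at the smallest in MP2-α2/CI.

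B2M, the light chain shared by all class I molecules, did not go with the heavy chains. B2M 201891_s_at read 13.47 in MP2-α2/CI and 13.41 in MP2-α2/TC, against 13.38 in MP2-mock. B2M 216231_s_at read 13.86 in MP2-α2/CI and 13.78 in MP2-α2/TC, against 13.94 in MP2-mock. The first probe set was higher by 0.09 in MP2-α2/CI and by 0.03 in MP2-α2/TC, and the second was lower by 0.08 in MP2-α2/CI and by 0.15 in MP2-α2/TC, so that the probe sets differed in direction.

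The transporter subunits differed mainly in MP2-α2/TC cells. TAP1 202307_s_at read 8.09 in MP2-α2/CI and 7.74 in MP2-α2/TC, against 8.30 in MP2-mock. The TAP1 difference of -0.56 in MP2-α2/TC, 1.48-fold lower, was the largest of any member from MP2-mock within the 3 arrays, and in MP2-α2/CI it was -0.22. TAP2 225973_at read 7.81 in MP2-α2/CI and 7.53 in MP2-α2/TC, against 7.91 in MP2-mock, a difference of -0.09 for MP2-α2/CI and of -0.37 for MP2-α2/TC. TAP2 204769_s_at read 8.35 on both α2 arrays and 8.40 in MP2-mock, and TAP2 204770_at was 2.97 on all 3 arrays. The probe sets of TAP2 thus did not move to the same degree, and only 225973_at was over 0.1 lower.

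PSMB8 and PSMB9 encode the β5i and β1i subunits, which take the places of PSMB5 and PSMB6 in the immunoproteasome. PSMB8 209040_s_at read 8.74 in MP2-α2/CI and 8.43 in MP2-α2/TC, against 8.78 in MP2-mock. PSMB9 204279_at read 7.65 in MP2-α2/CI and 7.50 in MP2-α2/TC, against 7.65 in MP2-mock. In MP2-α2/CI both were within 0.04 of MP2-mock, and PSMB9 was identical to it. In MP2-α2/TC PSMB8 was lower by 0.35 and PSMB9 by 0.15.

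**Figure D3:**
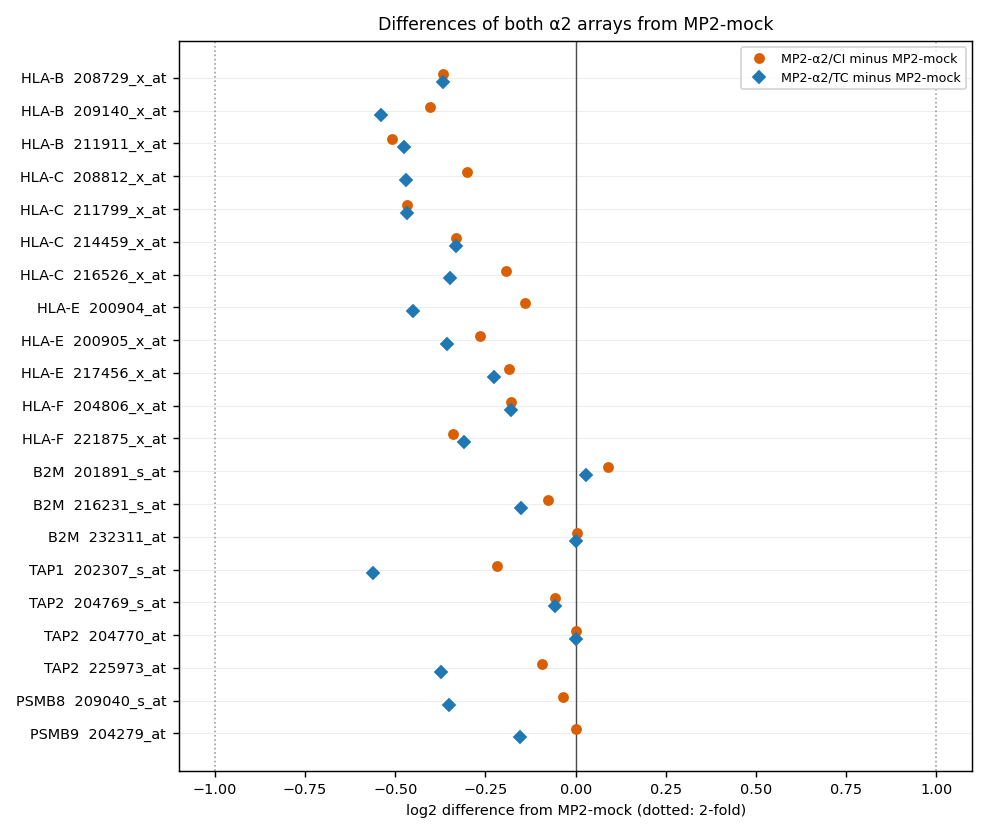
Log2 difference from MP2-mock of MP2-α2/CI (circles) and MP2-α2/TC (diamonds) for the 21 member probe sets above the floor on an array of the pair; dotted lines mark 2-fold. All heavy chain probe sets lie left of 0, between -0.54 and -0.14, and no member reaches a dotted line.

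Counted over all 21 probe sets above the floor on either array, 0 differed by 2-fold or more in MP2-α2/CI from MP2-mock, where 0.492% of 29696 probe sets did, and 0 in MP2-α2/TC, where 0.462% of 29885 did. A limit of 0.1 on the log2 scale, chosen after the values were seen, separated them more. Lower than MP2-mock by over 0.1 were 13 of 21 in MP2-α2/CI, beside 13.3% of all probe sets, and 17 of 21 in MP2-α2/TC, beside 9.88%. Brighter probe sets and those ending in _x_at were lower more often over the whole array, so the members were also read against these. Of the 16 members above 8 in MP2-mock, 12 were lower in MP2-α2/CI, beside 21.2% of all probe sets above 8, and 14 in MP2-α2/TC, beside 13.6%. Of the 11 members ending in _x_at, 11 were lower in MP2-α2/CI, beside 15.8% of all such probe sets, and 11 in MP2-α2/TC, beside 11.3%. Of the 10 others, 2 were lower in MP2-α2/CI and 6 in MP2-α2/TC.

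With 1 probe set per gene, the 1 with the highest mean over the arrays, the median difference from MP2-mock over the 9 genes was -0.22 in MP2-α2/CI and -0.35 in MP2-α2/TC, and the median over all genes tested was 0 in both. Without probe sets ending in _x_at or _s_at, which left 4 genes, it was -0.0462 in MP2-α2/CI and -0.26 in MP2-α2/TC. For B2M this left only 232311_at, which lies near the floor and differed by 0.0045 in MP2-α2/CI and 0 in MP2-α2/TC. The other genes left were HLA-E, TAP2 and PSMB9. Exact equality is common in this table. Between MP2-α2/TC and MP2-mock 49.7% of all probe sets tested were identical, against 2 of the 21 members, and between MP2-α2/CI and MP2-mock 42.6% were, again against 2 of 21. Of the 20 members that passed the floor everywhere, 17 were highest in MP2-mock among the 3 arrays, as were 19.0% of all probe sets, and 1 was identical on all 3 arrays, as were 36.5% of all. How the identical values arose was not tested.

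Members were slightly higher in α2 cells on collagenI than in those on plastic. MP2-α2/CI exceeded MP2-α2/TC by over 0.1 in 8 of 21 members, where 11.4% of all probe sets did, and 0 were 2-fold apart, where 0.138% were. TAP1 was 0.34 higher, PSMB8 0.32, HLA-E 200904_at 0.31 and TAP2 225973_at 0.28. HLA-C 208812_x_at was 0.17 higher, HLA-C 216526_x_at 0.16, PSMB9 0.15 and HLA-B 209140_x_at 0.14. Identical on the α2 arrays were 6 of the 21, beside 48.8% of all probe sets. They were 1 probe set of HLA-B, 2 of HLA-C, 1 of HLA-F and 2 of TAP2. The median over the 9 genes was 0.14, beside 0 over all genes. In these 8 probe sets MP2-α2/CI lay nearer to MP2-mock than MP2-α2/TC did, whereas HLA-B 211911_x_at and HLA-F 221875_x_at went the other way by 0.03.

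The arrays of MP2-α2Δ and MP2-α9α2 cells, both with changed integrins, differed far more from each other over the whole genome, yet no member did so by 2-fold. The count was 0 of 20, beside 12.5% of 30975 probe sets. At 1.5-fold it was 2 of 20, PSMB9 and TAP2 204769_s_at, beside 27.8%. Higher in MP2-α2Δ by over 0.1 were 9 of 20, beside 28% of all probe sets, and lower by over 0.1 were 2 of 20, TAP1 and HLA-E 200904_at, beside 30.8%. The median over the 9 genes was 0.10, beside 0 over all genes, and 4 of 20 members were identical, beside 29.7% of all probe sets.

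The heavy chains were close on these arrays. HLA-B 211911_x_at read 11.12 in MP2-α2Δ cells and 10.88 in MP2-α9α2, HLA-B 208729_x_at had 10.53 in MP2-α2Δ cells and 10.30 in MP2-α9α2 cells, and these differences of 0.24 and 0.23 were the largest upward ones among the heavy chains. HLA-C 214459_x_at and HLA-C 216526_x_at were identical, at 11.22 and 10.51. HLA-E 200904_at went the other way, with 8.98 in MP2-α2Δ cells and 9.26 in MP2-α9α2, a difference of -0.28. Over the 12 heavy chain probe sets the range was thus -0.28 to 0.24, with a median of 0.08. B2M 201891_s_at was 14.11 on both arrays, and B2M 216231_s_at was 14.43 in MP2-α2Δ cells and 14.20 in MP2-α9α2.

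TAP1 and TAP2, which work as 1 heterodimer, differed in opposite directions. TAP1 read 9.04 in MP2-α2Δ cells and 9.40 in MP2-α9α2, a difference of -0.36. TAP2 204769_s_at read 9.03 in MP2-α2Δ cells and 8.41 in MP2-α9α2, a difference of 0.62 or 1.54-fold. The second bright probe set of the gene, TAP2 225973_at, read 8.95 in MP2-α2Δ cells and 8.87 in MP2-α9α2, a difference of 0.08 that did not match the first.

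The 7 proteasome genes measured, with 1 probe set each, were all over 0.1 higher in MP2-α2Δ, beside 32.3% of all genes. PSMB6, PSMB7 and PSMB10 were at least 2-fold apart, beside 15% of all genes. PSMB7 was read by 200786_at, and its other probe set, 244801_at, was identical on both arrays at 2.29, near the floor. PSMB9 read 6.08 in MP2-α2Δ cells and 5.37 in MP2-α9α2, a difference of 0.71 or 1.63-fold, and PSMB8 read 8.27 in MP2-α2Δ cells and 7.82 in MP2-α9α2, a difference of 0.45 or 1.37-fold. Of the subunits that are not members, PSMB10, PSMB5, PSMB6 and PSMB7 differed more than either member, and PSME1 differed less. PSMB10, the β2i subunit of the immunoproteasome, read 8.68 in MP2-α2Δ cells and 7.55 in MP2-α9α2, a difference of 1.13. The constitutive catalytic subunits PSMB5, PSMB6 and PSMB7 were higher by 0.72, 1.23 and 1.21, and the 11S cap subunit PSME1 by 0.30. Immunoproteasome and constitutive subunits therefore differed in the same direction on these arrays, and in each pair that share a place in the particle the constitutive subunit had the larger difference, with 0.72 for PSMB5 beside 0.45 for PSMB8, 1.23 for PSMB6 beside 0.71 for PSMB9 and 1.21 for PSMB7 beside 1.13 for PSMB10.

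**Figure D4:**
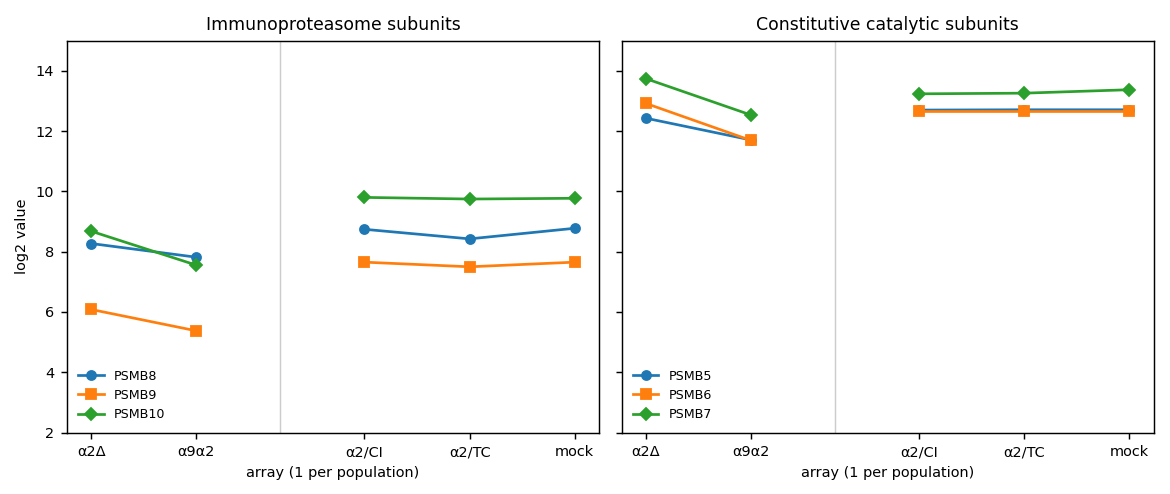
Log2 values of the immunoproteasome subunits (left panel) and the constitutive catalytic subunits (right panel) on the 5 arrays, 1 point per array, with a vertical line between the normalization sets. All 6 genes have their higher left-hand point in MP2-α2Δ, and among the 3 arrays to the right of the line the widest span is the 0.35 of PSMB8.

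Among the genes that load and trim peptides, none of 7 was 2-fold apart in any comparison within a set. Of all genes, 0.65% were 2-fold apart from MP2-mock in MP2-α2/CI and 0.67% in MP2-α2/TC. Between the α2 arrays 0.19% were, and between MP2-α2Δ and MP2-α9α2 15%. In MP2-α2Δ 5 of the 7 were over 0.1 lower than in MP2-α9α2, and none was over 0.1 higher, beside 33.9% lower and 32.3% higher over 12924 genes with 1 probe set each. The largest differences were those of ERAP1 and CANX, an aminopeptidase of the endoplasmic reticulum and the chaperone calnexin, at -0.57 for both. ERAP2, a second aminopeptidase, was -0.53, and TAPBP, which bridges the transporter and the heavy chain, differed by 0.03.

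**Figure D5:**
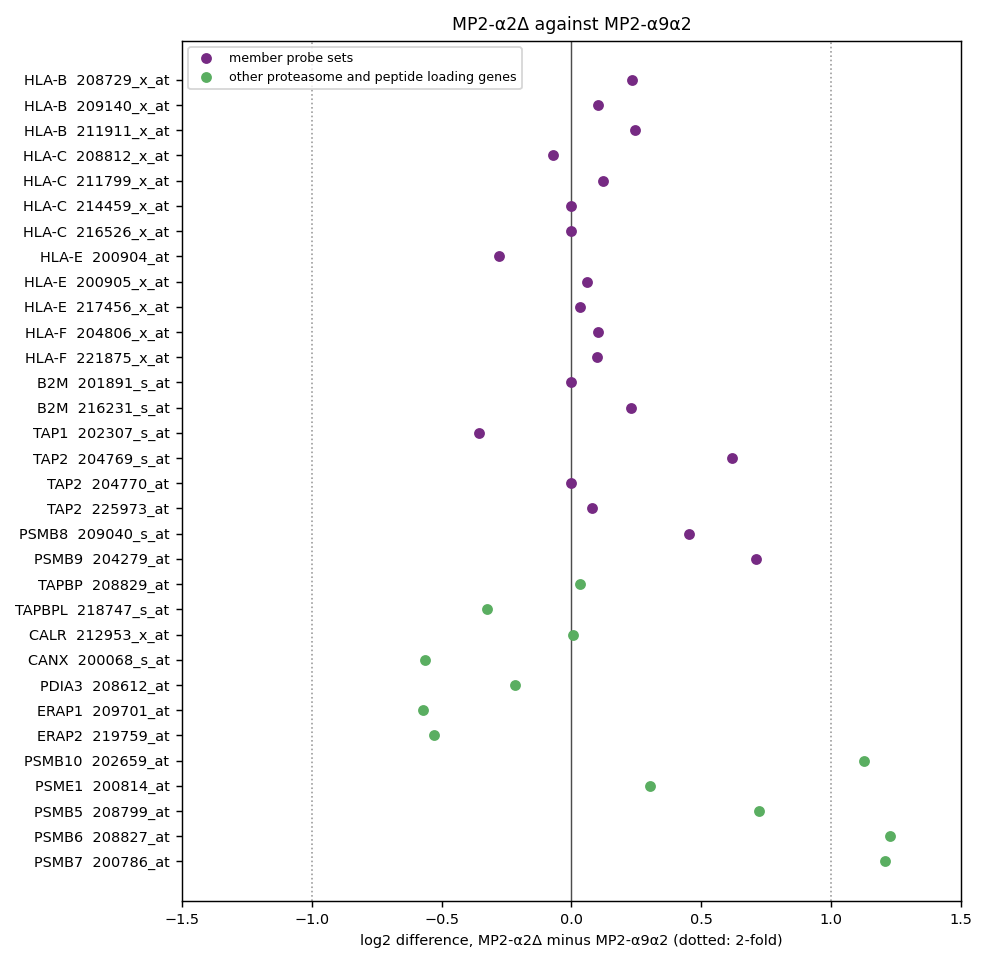
Log2 difference of MP2-α2Δ minus MP2-α9α2 for the 20 member probe sets above the floor and for 12 other genes of peptide loading and the proteasome, with dotted lines at 2-fold. Members lie between -0.36 and 0.71, and PSMB6, PSMB7 and PSMB10 lie beyond the right dotted line.

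Against MP2-mock, 1 of the 7 loading genes was over 0.1 lower and 1 over 0.1 higher on each α2 array. Over all genes 15.6% were lower and 17.8% higher in MP2-α2/CI, and 11.6% were lower and 12.6% higher in MP2-α2/TC. CALR, the chaperone calreticulin, read 12.67 in MP2-α2/CI and 12.65 in MP2-α2/TC, against 12.98 in MP2-mock. ERAP2 read 7.05 in MP2-α2/CI and 7.03 in MP2-α2/TC, against 6.68 in MP2-mock, so it was higher where the heavy chains were lower. Of the class I-like genes, HLA-G 211529_x_at read 10.53 on both α2 arrays and 10.77 in MP2-mock, and this probe set too can read other HLA genes. HFE encodes an iron regulator that pairs with B2M, and HFE 206087_x_at was 10.16 in MP2-α2Δ cells and 8.85 in MP2-α9α2, a difference of 1.31. Over the 15 probe sets of HFE this difference ranged from 0 to 2.16. HFE was the 1 gene of 8 tested on this list that was 2-fold apart there, beside 15% of all genes.

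Regulators of these promoters showed no 2-fold difference between an α2 array and MP2-mock in 12 of 12 genes. Such differences were rare over all genes too, at 0.65% in MP2-α2/CI and 0.67% in MP2-α2/TC. RFXAP, a subunit of the RFX complex that binds class I promoters, was over 0.1 higher on both, with 7.08 in MP2-α2/CI and 7.13 in MP2-α2/TC, against 6.84 in MP2-mock. NLRC5, the transactivator of class I genes, was 3.64 on these 3 arrays. It read 2.30 in MP2-α2Δ cells and 4.08 in MP2-α9α2, a difference of -1.78 near the floor, and RFXANK, another RFX subunit, read 10.50 in MP2-α2Δ cells and 9.33 in MP2-α9α2, a difference of 1.17. Of the 12, 8 were over 0.1 lower and 1 was over 0.1 higher in MP2-α2Δ, beside 33.9% lower and 32.3% higher over all genes with 1 probe set each. Among 5 genes of interferon γ signaling, SOCS1 210001_s_at, an inhibitor of the pathway, read 6.46 in MP2-α2Δ cells and 3.62 in MP2-α9α2, but its other 3 probe sets differed by at most 0.17. The kinase JAK2 read 5.78 in MP2-α2Δ cells and 6.79 in MP2-α9α2, a difference of -1.01. None of the 5 was 2-fold apart from MP2-mock on an α2 array, beside the same 0.65% and 0.67% of all genes. The largest differences there were that of SOCS1 210001_s_at in MP2-α2/CI, -0.57, and that of the receptor chain IFNGR2 in MP2-α2/TC, -0.42. SOCS1 209999_x_at and 213337_s_at were identical to MP2-mock on both α2 arrays, and 210000_s_at was below the floor.

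Set against MP2-mock across the normalization sets, probe sets of the same gene disagreed. Relative to the shift, 6 of 21 members were at least 2-fold apart in MP2-α2Δ, beside 31.9% of all probe sets, and 6 of 21 in MP2-α9α2, beside 37.6%. These were the same 6 probe sets, 2 of HLA-C, 2 of HLA-E, PSMB8 and PSMB9, and the comparisons share the MP2-mock array. HLA-C 208812_x_at was -1.48 in MP2-α2Δ and -1.42 in MP2-α9α2, and HLA-C 216526_x_at was -1.41 in both. HLA-C 211799_x_at was 0.37 in MP2-α2Δ cells and 0.24 in MP2-α9α2. HLA-E 200904_at was 1.55 in MP2-α2Δ cells and 1.83 in MP2-α9α2, whereas HLA-E 217456_x_at was -1.32 in MP2-α2Δ and -1.36 in MP2-α9α2. No level of HLA-C or HLA-E as a gene can therefore be compared across the sets.

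As deposited, the immunoproteasome subunits and PSMB5 were lower on both arrays than in MP2-mock, and PSMB6 and PSMB7 200786_at were lower in MP2-α9α2 alone. PSMB5 read 12.43 in MP2-α2Δ cells and 11.71 in MP2-α9α2, against 12.71 in MP2-mock. As deposited, PSMB6 differed from MP2-mock by 0.27 in MP2-α2Δ and -0.96 in MP2-α9α2. PSMB7 200786_at differed by 0.37 in MP2-α2Δ and -0.84 in MP2-α9α2. The values of 0.27 and 0.37 in MP2-α2Δ are smaller than its shift of 0.53. Relative to the shift PSMB6 and PSMB7 were therefore lower than MP2-mock in MP2-α2Δ too, and their sign there followed the scaling. PSMB10, also as deposited, differed by -1.09 in MP2-α2Δ and -2.22 in MP2-α9α2, and PSME1 by -1.91 in MP2-α2Δ and -2.21 in MP2-α9α2. PSMB9 read 6.08 in MP2-α2Δ cells and 5.37 in MP2-α9α2, against 7.65 in MP2-mock, which relative to the shift is -2.10 for MP2-α2Δ and -2.81 for MP2-α9α2. PSMB8 read 8.27 in MP2-α2Δ cells and 7.82 in MP2-α9α2, against 8.78 in MP2-mock, or -1.04 for MP2-α2Δ and -1.496 for MP2-α9α2 relative to the shift. Under all 3 scalings tried (as deposited, centered on the shared median, and quantile normalized) 7 of 20 probe sets were lower than MP2-mock in both populations, beside 25.9% of 27320 probe sets. They were PSMB8, PSMB9, HLA-B 209140_x_at, HLA-C 208812_x_at, 214459_x_at and 216526_x_at, and HLA-E 217456_x_at. Higher in both were 2 of 20, HLA-E 200904_at and TAP2 225973_at, beside 33.9%. As deposited, the median over the 9 genes was 0.39 in MP2-α2Δ cells and 0.01 in MP2-α9α2, beside 0.37 for MP2-α2Δ and 0.33 for MP2-α9α2 over all genes. Relative to the shift these medians were -0.13 for MP2-α2Δ and -0.53 for MP2-α9α2, and they were -0.45 for MP2-α2Δ and -0.80 for MP2-α9α2 after centering and -0.31 for MP2-α2Δ and -0.79 for MP2-α9α2 after quantile normalization, so that their sign followed the scaling. Construct, substrate and normalization set cannot be told apart in these differences.

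Over the 5 arrays, after quantile normalization and centering of each profile, HLA-B lay closest to the mean profile of the 9 genes, at a root mean square distance of 0.0781, and PSMB9 farthest, at 1.02. TAP2 was at 0.193, HLA-F at 0.245, HLA-C at 0.303, PSMB8 at 0.378, B2M at 0.407, HLA-E at 0.431 and TAP1 at 0.548. Each gene was read by its brightest probe set, 208812_x_at for HLA-C and 200905_x_at for HLA-E. Other probe sets of HLA-C and HLA-E disagreed with these across the sets, so their distances describe the probe sets, not the genes. Of 22995 other probe sets, 9 lay nearer to this mean than HLA-B did, 2082 nearer than TAP2, 3543 nearer than HLA-F and 5365 nearer than HLA-C. For PSMB8 the count was 7883, for B2M 8761, for HLA-E 9425, for TAP1 12484 and for PSMB9 19899. Each member is part of this mean and the other probe sets are not, which favors the members. The 5 other genes with the most similar profile were ATG4D (0.0411), TMEM41A (0.0632), IDH3B (0.0675), USP21 (0.0702) and MAVS (0.0732). With 5 points per profile, and with the step between the normalization sets in each, such likeness is a description of these arrays.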

How the data were processed

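The values deposited by the authors are normalized, with 1 per probe set on each array, and were taken as log2 from their range. GCRMA and MAS5 stand in the submitters' processing notes without role or version. No genome build is given in the sources used here. Which arrays were normalized together was inferred from their shared minimum. Of 54675 probe sets, 62 controls were left out. The array annotation gave 1 symbol for 41091, several for 1801 and none for 11721, brought up to date through RefSeq GRCh38.p14, which served for names, gene order and promoters.

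Log2 differences were taken for 6 pairs of arrays, 4 of them within a normalization set, after values below the floor were raised to it. A probe set entered a comparison when above the floor on either array. Counts used 2-fold and, added later, 0.1 on the log2 scale. Values were called identical within 1e-06. With 1 array per population there is no spread, so the precision of a difference cannot be judged. Height above the floor shows only that a signal was measurable. All 9 members are described. Genes of the other lists were named when 2-fold apart within a set or among the largest differences, and for likeness the 5 nearest profiles. The members and lists were chosen with earlier results of these data known, so their counts are not independent evidence. Steps were run in Python 3.11.15 with pandas 2.3.3, numpy 2.4.6 and matplotlib 3.10.9 and tested on simulated data. The alternatives were another floor or none, centering, quantile normalization, leaving out probe sets ending in _x_at or _s_at, another fold, and the mean over the probe sets of a gene.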

Additional observations from a re-analysis of the deposited data

How the results depend on the processing

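With 1 array per population, no value has an error and nothing was tested. No paired analysis was possible because each population had 1 array. The counts at 2-fold within the normalization sets stayed at 0 under every alternative but 1, the 1.5-fold limit for MP2-α2Δ over MP2-α9α2, which gave 2. The median over genes for MP2-α2/CI over MP2-mock was -0.0462 without probe sets ending in _x_at or _s_at, which left 4 of 9 genes. For B2M this left only 232311_at, near the floor, which also enters the median of 0.45 and the counts out of 5 below. The medians across the sets followed the scaling. Of 20 probe sets, 7 were lower and 13 higher in MP2-α2Δ than in MP2-mock as deposited, against 17 and 3 after centering and 13 and 7 after quantile normalization. For MP2-α9α2 these counts were 8 and 12 as deposited, 17 and 3, and 13 and 7. For MP2-α2Δ over MP2-mock the median was -0.45 after centering, -0.31 after quantile normalization and 0.26 with the mean of all probe sets of a gene. For MP2-α9α2 over MP2-mock it was -0.80 after centering, -0.79 after quantile normalization, 0.16 with the mean of all probe sets and 0.45 without probe sets ending in _x_at or _s_at. For the 0.1 limit, whose alternatives were chosen after seeing the data, leaving out those probe sets left 1 of 5 members lower in MP2-α2/CI and 3 of 5 in MP2-α2/TC, and among the heavy chains 1 of 1 in each. The heavy chain result thus rests mainly on probe sets that can read several HLA genes.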

Other observations

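The genes between HLA-F and PSMB9 on the same chromosome that are not members, a region chosen after the values were seen, numbered 114 in the RefSeq order, of which 55 were above the floor. Lower than MP2-mock by over 0.1 were 18 of the 55 in MP2-α2/CI (32.7%) and 13 in MP2-α2/TC (23.6%), with 1 probe set per gene, beside 15.6% of all genes in MP2-α2/CI and 11.6% in MP2-α2/TC. In MP2-α2Δ 27 of the 55 were over 0.1 higher than in MP2-α9α2 and 3 were over 0.1 lower, beside 32.3% higher and 33.9% lower over all genes. At least 2-fold apart were 16 of the 55, beside 15% of all genes. None of the 20 member probe sets was, but these come from only 9 genes and are not 20 separate measurements.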
